A study of Labroides dimidiatus with 23 samples.

Results

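Histone H3 lysine 27 acetylation (H3K27ac) in the forebrain of adult cleaner wrasse was read as called peaks. In 1401 genome stretches, peaks covered at least 50% of the bases in the same 3 libraries and in at most 1 of 19 others. Shorter peaks of more libraries could lie in them. These stretches are called extra regions below. The 3 libraries were familiar 120 replicate 3, control 30 replicate 3 and familiar 30 replicate 4. The numbers opening their titles, read here as fish numbers, are 58, 45 and 48. The extra regions were chosen by peak cover from 52979 consensus regions, of which they made up 2.64%. Consensus regions were bases under the peaks of at least 3 of 22 libraries, at least 200 bp long after gaps of up to 200 bp were closed, without the mitochondrial genome. A region was present in a library when peaks covered at least 50% of its bases, and an extra region was present in all 3 named libraries and in at most 1 of the other 19. Cover in these 22 libraries therefore chose the regions, and it is given as a description without a test. No comparison of groups across all regions was tested here.

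The series held 23 CUT&RUN libraries of *Labroides dimidiatus* forebrain, each with its own list of broad peaks. Familiar fish had been familiarised with a client fish before a social preference test, and control fish met clients that were both new to them. Titles also carry the number 30 or 120, for which no unit is given, and the groups were familiar 30 (6 libraries), control 30 (5 libraries), familiar 120 (6 libraries) and control 120 (6 libraries). The rule did not use familiar 30 replicate 2, whose list held 7076 nuclear peaks covering 4.70 Mb, against 34713 to 48263 peaks covering 67.3 to 95.2 Mb in the other 22. That libraries come from separate animals is read only from the number opening each title.

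In CUT&RUN a nuclease is brought to the antibody on chromatin, and the fragments it releases are sequenced. Acetylation of lysine 27 on histone H3 is deposited by the coactivators p300 and CBP and marks active promoters and enhancers. In animals, enhancers are the elements whose acetylation differs most between cell types, and long acetylated stretches are known near genes that define a cell's identity. Coordinates below are those of the deposited peak lists, counted from 1, and no source used here names the genome build. Genes, base composition and markers of the labelled forebrain were not analysed here. The lists give called peaks of bulk tissue, so fewer acetylated cells and weaker acetylation per cell cannot be told apart, and read depth is unknown.

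The extra regions had a joint length of 2.19 Mb, 1.64% of all bases in consensus regions. Peaks covered on average 98.4% of an extra region in familiar 120 replicate 3, 98.6% in control 30 replicate 3 and 93.8% in familiar 30 replicate 4. In the other 19 libraries this mean lay between 1.73% and 10.6%, with a median of 4.04%. Each region counts equally in this mean. Of all bases of the extra regions, peaks of these 19 libraries covered from 4.37% (familiar 120 replicate 4) to 18.1% (control 120 replicate 4). High cover in the 3 libraries is in part built in, because a base under no peak of the other 19 libraries enters a consensus region only where all 3 overlap. In 850 extra regions (60.7%) each of the 3 libraries covered every base. At the edge of the rule, 30 extra regions had a lowest cover of 50 to 55% among the 3 libraries, and 41 regions with 45 to 50% fell just outside. With a library left out and the other settings kept, 656 regions met the rule without familiar 120 replicate 3, 603 without control 30 replicate 3 and 1082 without familiar 30 replicate 4, where any base of a region then needs a library outside the remaining pair. With bases under at least 2 libraries, an alternative added after the data were seen, these counts were 1749, 1580 and 3032. Of the bases of the extra regions, 16.9%, 17.2% and 23.0% stayed in such regions with the other settings kept, in the same order. With bases under at least 2 libraries, 98.2%, 98.9% and 96.8% stayed.

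Treatment and label number were mixed among the libraries that hold the extra regions. Among the 5 familiar 30 libraries used by the rule, mean cover of an extra region was 93.8% in replicate 4 and 1.98 to 8.36% in the other 4. Among the 5 control 30 libraries it was 98.6% in replicate 3 and 2.16 to 5.06% in the other 4. In familiar 120 libraries it was 98.4% in replicate 3 and 1.73 to 5.47% in the other 5. The 6 control 120 libraries held none of the 3, and their mean cover ranged from 3.37 to 10.6% with a median of 4.15%. Each of the 3 groups thus had a single library with high cover, and the remaining libraries of the 4 groups overlapped in range.

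**Figure D1:**
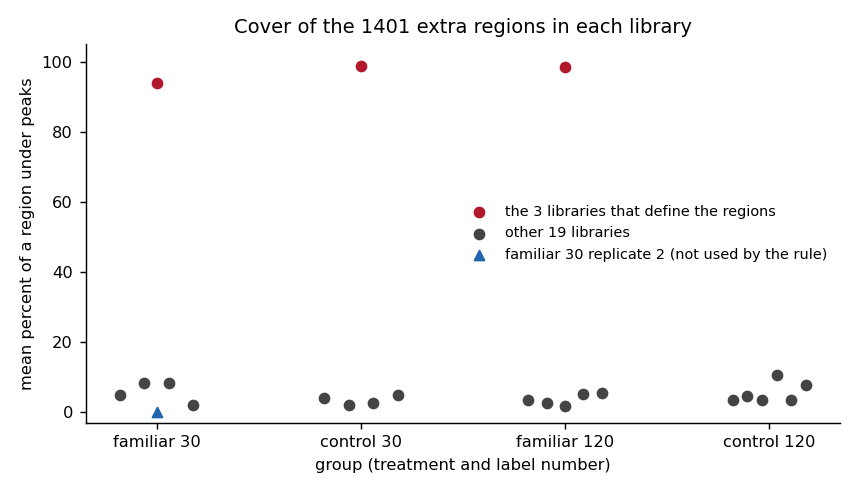
Mean percent of an extra region under called peaks in each library (vertical axis, percent), by group (horizontal axis), with a point per library. The 3 libraries used to choose the regions (red) lie at 93.8 to 98.6%, the other 19 (grey) at 1.73 to 10.6%, and familiar 30 replicate 2 (blue triangle), not used by the rule, near 0.

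Of the extra regions, 981 were present in none of the other 19 libraries and 420 in 1 of them. That additional library was most often control 120 replicate 4 (69 regions), familiar 30 replicate 5 (57), familiar 30 replicate 3 (52) or control 120 replicate 6 (40). These 4 lists held 46143 to 48263 nuclear peaks. It was least often familiar 30 replicate 6 (1 region), familiar 120 replicate 4 (4), control 30 replicate 2 (5) or familiar 120 replicate 2 (7), with 39583 to 44736 peaks. List length did not order the libraries throughout: control 120 replicate 2 had 46970 peaks and was the additional library for 16 regions, and control 120 replicate 5 had 46407 peaks and was it for 11. The part of list length in these counts was not tested.

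Regions present in all 3 libraries were most frequent, by count, at both ends of the scale. Of 1023 consensus regions present in none of the other 19 libraries, 981 (95.9%) were present in all 3. This share is largely built in, because a base enters a consensus region only under at least 3 libraries. With 1 other library the count was 420 of 1146 (36.6%), and with 2, just outside the rule, 319 of 2269 (14.1%). The count was lowest with 6 other libraries (171 of 3102, 5.51%), and the share was lowest with 3 (244 of 4970, 4.91%). With all 19 the count was 4817 of 7389 (65.2%). Among 5828 regions present in exactly 3 of the 22 libraries, the 3 named here made up 16.8%. The next most frequent set, familiar 120 replicate 3 and control 30 replicate 3 with familiar 30 replicate 3, held 66 regions (1.13%). The extra regions were chosen with earlier results of these data known, so this contrast between sets is a description only.

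**Figure D2:**
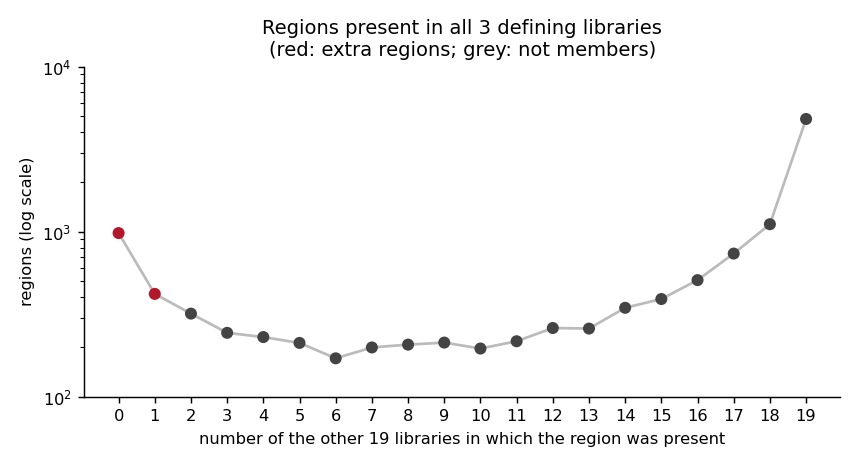
Number of regions present in all 3 libraries (vertical axis, log scale) by the number of the other 19 libraries in which they were also present (horizontal axis). Red points are the extra regions, 981 and 420. The count falls to 171 at 6 other libraries and reaches 4817 at 19.

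Extra regions were longer than the 9347 other regions present in 3 or 4 libraries. Their median length was 929 bp, against 478 bp in these other regions. At least 1 kb was reached by 657 extra regions (46.9%), against 17.8% of the others, and at least 3 kb by 180 (12.8%), against 1.05%. There were 74 extra regions of 5 kb or longer and 9 of 10 kb or longer, against 17 and 1 among the others. On each of 24 chromosomes the median length of extra regions was above that of the other regions in 3 or 4 libraries. Regions present in all 22 libraries were longer still, with a median of 3173 bp. Regions are not samples, so these differences carry no test. The median depended on the rule: it was 531.5 bp without familiar 120 replicate 3, 553 bp without control 30 replicate 3, 553.5 bp without familiar 30 replicate 4 and 2187 bp with bases under at least 2 libraries. These medians come from the regions that met each changed rule, not from the same set of regions. Length also moved with how the others were composed: among the other regions in 3 or 4 libraries, the median was 562 bp for 1107 that held 2 of the 3 libraries, 472 bp for 2395 that held 1 and 466 bp for 5845 that held none.

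**Figure D3:**
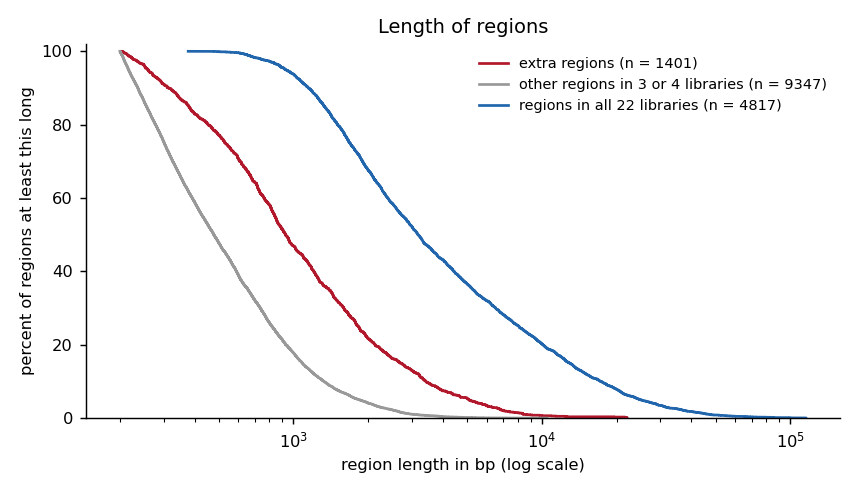
Percent of regions (vertical axis) that are at least as long as the length on the horizontal axis (bp, log scale). The curve of the extra regions (red, median 929 bp) lies between those of other regions in 3 or 4 libraries (grey, 478 bp) and of regions in all 22 libraries (blue, 3173 bp).

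The extra regions ran from ones that none of the other 19 libraries touched to ones around a stretch that many libraries shared. In 604 extra regions (43.1%) no base lay under a peak of any of the other 19 libraries. These were short, with a median of 572 bp, but reached 12637 bp. At least 5 of the 19 libraries touched 297 extra regions (21.2%). In 120 extra regions (8.57%) some base lay under peaks of 10 or more of the 19, and in 32 some base lay under all 19. Those 120 had a median length of 4317 bp, of which a median of 654.5 bp was shared by 10 or more libraries. Among extra regions of 3 kb or longer, 92 of 180 (51.1%) had such a shared stretch and 12 (6.67%) were untouched by the 19. Among those under 500 bp the counts were 0 and 258 of 321 (80.4%). Any single base counted, so a longer region had more bases that could lie under a peak. Other regions of equal length were not measured in this way. Over many of the long extra regions, other libraries thus had a shorter peak at the same place.

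The 5 longest extra regions included both kinds. The longest, of 22054 bp, was on chromosome 18 from 24413410 to 24435463, with a cover of 100% in each of the 3 libraries. The other 19 libraries covered it by 0 to 15.05% with a median of 0, and 4 of them touched it. Beside it, chromosome 18 from 24396544 to 24409180 (12637 bp) was covered by 100% in each of the 3 libraries and by 0% in all 19. In familiar 120 replicate 3, and likewise in control 30 replicate 3, a single called peak spanned both regions. These neighbours lay in a stretch where the nearest region present in all 22 libraries was 305661 bp and 288795 bp away.

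The other long ones had a shared stretch inside. On chromosome 4 from 20307796 to 20329630 (21835 bp), cover was 100% in familiar 120 replicate 3, 100% in control 30 replicate 3 and 96.5% in familiar 30 replicate 4, against 21.8 to 40.8% in the other 19, with 6568 bp under 10 or more of them. On chromosome 21 from 16226478 to 16248066 (21589 bp), cover was 96.7% in familiar 30 replicate 4 and 100% in both others of the 3, against 9.87 to 56.7% in the 19, where it was also present in familiar 30 replicate 5. On chromosome 19 from 10236193 to 10255720 (19528 bp), cover was 92.3% in familiar 30 replicate 4 and 100% in both others of the 3, against 14.4 to 47.7% in the 19. In each of these 3 regions all 19 libraries touched the region. Its cover in the 3 libraries lay above that of every other library, as the rule largely requires.

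The deposited fold enrichment, the authors' own value for each peak over background, was not itself a term of the rule, but it comes from the 3 libraries whose peaks the rule required, and is given as a description. It was read here as a rank within each library's list, from 0 to 100%, and ranks are not compared between lists as a change. In familiar 120 replicate 3 the median rank was 83.1% for extra regions, 50.3% for the other regions in 3 or 4 libraries that were present there, and 83.5% for regions present in all 22. In control 30 replicate 3 the median rank was 69.9% for extra regions, 29.99% for those other regions and 90.3% for regions present in all 22. In familiar 30 replicate 4 it was 32.3% for extra regions, 18.02% for those other regions and 90.5% for regions present in all 22. In familiar 120 replicate 3 extra regions thus ranked about as high as regions shared by all libraries, and in familiar 30 replicate 4 most of them ranked below the median of the list. The list of familiar 120 replicate 3 was the shortest of the 22, with 34713 peaks. Of the 3 lists, it was also the one in which regions present in all 22 had their lowest median rank.

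Fold values show the size of these peaks. The median fold of the peaks over extra regions was 4.42 in familiar 120 replicate 3, where regions present in all 22 had 4.45 and 692 extra regions (49.4%) exceeded that. In control 30 replicate 3 it was 3.37 against 4.97, which 60 extra regions (4.28%) exceeded. In familiar 30 replicate 4 it was 2.38 against 4.79, which 0 extra regions exceeded, the highest being 4.67. Longer extra regions had higher folds, with medians for those of 3 kb or longer and those under 500 bp of 5.27 and 3.50 in familiar 120 replicate 3, 3.91 and 2.81 in control 30 replicate 3, and 2.77 and 2.23 in familiar 30 replicate 4. Extra regions were also longer than the other regions in 3 or 4 libraries, and the part of length in the ranks was not tested. A -log10 q of at least 5 was reached by 72.1% of extra regions in familiar 120 replicate 3, 53.9% in control 30 replicate 3 and 3.64% in familiar 30 replicate 4, and by 43 (3.07%) in all 3. Of regions present in all 22, 76.3%, 92.2% and 92.2% reached it in these libraries, in the same order. Of the other regions in 3 or 4 libraries that were present in the library, 33.1%, 10.5% and 1.46% did. Fold belongs to the whole peak, and a peak can reach beyond the region. A further choice, made after the data were seen, kept extra regions whose peaks overlapped no consensus region outside the extra regions. Such a peak could still span several extra regions. The median rank was then 78.3% in familiar 120 replicate 3 (932 regions), 66.0% in control 30 replicate 3 (1056) and 32.1% in familiar 30 replicate 4 (1374). In familiar 120 replicate 3, 385 of these 932 regions (41.3%) exceeded the median fold of regions present in all 22.

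**Figure D4:**
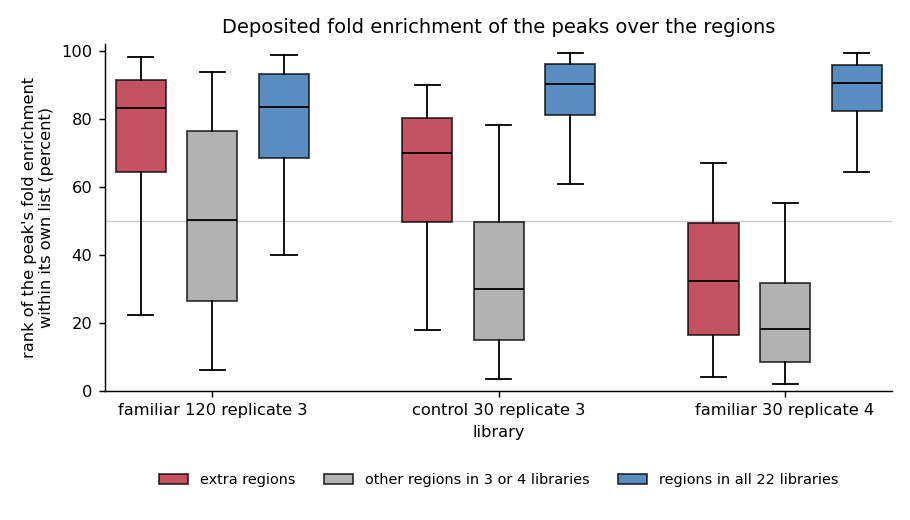
Rank of the deposited fold enrichment within the library's own list (vertical axis, percent) for peaks over extra regions (red), over other regions in 3 or 4 libraries (grey) and over regions in all 22 libraries (blue), in each of the 3 libraries. Boxes give quartiles and the median, and whiskers the 5th and 95th percentiles of regions. The median for extra regions is 83.1%, 69.9% and 32.3% from left to right.

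Extra regions can share a called peak. Peaks over the 1401 regions numbered 1191 in familiar 120 replicate 3, 1255 in control 30 replicate 3 and 1425 in familiar 30 replicate 4, so the regions are not independent of each other.

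The 5 extra regions whose lowest fold over the 3 libraries was highest were all acetylated in part elsewhere. The first lay on chromosome 16 from 10636240 to 10641991, with folds of 6.36 in familiar 120 replicate 3, 4.97 in control 30 replicate 3 and 4.67 in familiar 30 replicate 4. The 3 libraries covered it by 91.1 to 100%. The other 19 libraries covered it by 17.1 to 48.6%. The second, on chromosome 19 from 6140869 to 6149240, had folds of 5.57 in familiar 120 replicate 3, 5.21 in control 30 replicate 3 and 4.46 in familiar 30 replicate 4, and was covered by 15.1 to 66.6% in the 19. The region on chromosome 23 from 3824390 to 3827724 had a lowest fold of 4.31. That on chromosome 15 from 20030120 to 20037538 had 4.08, and that on chromosome 11 from 18980235 to 18985678 had 4.06. Each of the 5 was touched by all 19 libraries, and each was longer than 3 kb, a length at which 51.1% of extra regions had a stretch under 10 or more of the 19.

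Extra regions lay close to each other. The median gap from an extra region to the nearest other one was 15449 bp, and 766 (54.7%) had another within 20 kb. Of the other regions in 3 or 4 libraries, 8.54% had an extra region within 20 kb, with a median gap of 311031 bp, and of regions present in all 22 libraries 6.56% had. The gap to an extra region was shorter for extra regions than for the other regions in 3 or 4 libraries on 24 of 24 chromosomes. How close these other regions lay to each other was not measured. To the nearest consensus region of any kind, the median gap was 1930 bp for extra regions and 2219 bp for these other regions. Such a neighbour lay within 1 kb of 21.3% and 21.1% of them. Other regions in 3 or 4 libraries that held 2 of the 3 libraries were intermediate, with 33.6% having an extra region within 20 kb, against 9.24% for those with 1 and 3.52% for those with none. Neighbouring extra regions can lie under a single long peak. The share within 20 kb of another was 35.5% without familiar 120 replicate 3, 38.0% without control 30 replicate 3, 48.6% without familiar 30 replicate 4, 38.7% with bases under at least 2 libraries and 19.3% with peaks of -log10 q of at least 5. Each share is of the regions that met the changed rule. The median gap to the nearest region present in all 22 libraries was 54349 bp for extra regions, 48006.5 bp for other regions in 3 or 4 libraries and 39839 bp for those of them that held 2 of the 3 libraries. Such a region lay within 5 kb of 6.57% of extra regions and of 10.3% of other regions in 3 or 4 libraries.

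Consensus regions near extra regions were often under peaks of the 3 libraries as well. Of 3693 other consensus regions within 20 kb of an extra region, 62.0% were present in familiar 120 replicate 3, 73.7% in control 30 replicate 3 and 62.8% in familiar 30 replicate 4. The other 19 libraries held 27.3 to 54.996% of them. Of 47885 regions farther away, 25.1% were present in familiar 120 replicate 3, 46.4% in control 30 replicate 3 and 55.3% in familiar 30 replicate 4, and the other 19 held 35.4 to 60.8%. Higher presence of the 3 libraries nearby is partly built in, since the extra regions were chosen for their peaks and the same peak can reach into a neighbouring region. These shares are therefore a description only.

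Joined over gaps of up to 20 kb, the extra regions formed 885 runs, of which 250 held at least 2. At least 5 were held by 33 runs, with 219 extra regions in all. The run on chromosome 6 from 11855680 to 11916395 (60.7 kb) held 11 extra regions and no other consensus region. Peaks covered 52.6% of its span in familiar 120 replicate 3, 66.1% in control 30 replicate 3 and 38.7% in familiar 30 replicate 4, against 0 to 2.93% in the other 19 libraries. All 11 were present in none of the 19, whose peaks in this stretch were few and short.

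**Figure D5:**
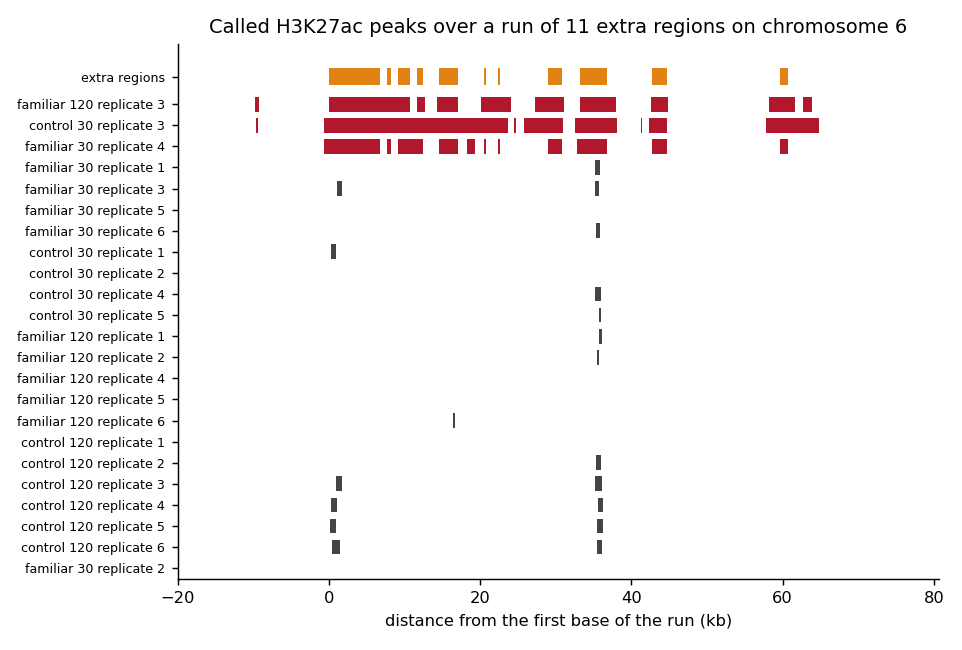
Called peaks in each library (rows) over the run of 11 extra regions on chromosome 6, by distance from the first base of the run (horizontal axis, kb). Orange bars are the extra regions, red bars peaks of the 3 libraries and dark bars peaks of the other 19. Familiar 30 replicate 2, in the last row, has no peak here. The 3 libraries cover 38.7 to 66.1% of the run and the other 19 at most 2.93%.

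A second run of 11 lay on chromosome 19 from 6112233 to 6175842, covered by 73.5% in familiar 120 replicate 3, 68.7% in control 30 replicate 3 and 38.5% in familiar 30 replicate 4, against 8.41 to 19.9% in the other 19. It also held a region that was present in the 3 libraries and in 17 of the 19. There were also 3 runs of 9. In that on chromosome 1 from 3560142 to 3606937 the 3 libraries covered 32.5 to 69.9% and the 19 covered 1.09 to 4.63%, and 8 of its 9 extra regions were present in no other library. In that on chromosome 16 from 15884840 to 15946599 the 3 libraries covered 32.6 to 89.2% and the 19 covered 0 to 10.7%. In that on chromosome 5 from 32711613 to 32769487 the 3 libraries covered 47.6 to 88.5% and the 19 covered 11.4 to 25.1%. In all 5 runs each of the 3 libraries covered more of the span than any of the 19, and familiar 30 replicate 4 covered the least of the 3. Higher cover in the 3 than in the 19 is largely built in, because the runs were chosen for holding the most extra regions.

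All 24 chromosomes held extra regions. The ratio of the highest to the lowest number per Mb was 3.76 for them and 1.37 for other regions in 3 or 4 libraries. Extra regions were also fewer, at 1.94 per Mb against 12.95, and small counts vary more in ratio. The part of this in the contrast was not tested. Extra regions per Mb were highest on chromosome 24 (3.24 per Mb, 29 regions) and chromosome 23 (2.96 per Mb, 60 regions). They were lowest on chromosome 8 (0.862 per Mb, 29 regions) and chromosome 3 (1.11 per Mb, 42 regions), measured up to the last peak. The other regions in 3 or 4 libraries ranged from 11.4 to 15.6 per Mb, and chromosome 24, with the most extra regions per Mb, had the lowest of these values. Chromosome 24, with its last peak at 8.94 Mb, also had the most regions present in all 22 libraries per Mb (10.96). Over the 24 chromosomes, Spearman rho of extra regions per Mb was -0.052 with regions present in all 22 per Mb. With the other regions in 3 or 4 libraries per Mb it was 0.178. As a share of a chromosome's consensus regions, extra regions were highest on chromosome 23 (4.15%). The share was 3.63% on chromosome 24 and 2.64% over all consensus regions. The 20 consensus regions on 5 unplaced scaffolds included 0 extra regions. Regions of a run are not independent, and no test of chromosomes was made.

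Familiar 30 replicate 2, the library the rule did not use, touched 6 of the 1401 extra regions (0.428%, exact 95% binomial interval 0.157 to 0.930%) and covered at least 50% of 1. It touched 10 of the 9347 other regions in 3 or 4 libraries (0.107%, 0.0513 to 0.197%) and 2441 of the 4817 regions present in all 22 (50.7%, 49.3 to 52.1%). The intervals cover counting error over regions only. They take regions as independent, which extra regions are not, and come from a single library, so they test no difference between classes. The share it touched was thus low in both rare classes, and with 7076 peaks this list gives little information on them.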

How the data were processed

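H3K27ac CUT&RUN was done on adult forebrain, per the labels' protocols. Trimmomatic 0.39, FastQC, Bowtie2, SAMtools, Picard and MACS2 are named in the submitters' processing notes. Their settings, the genome build and any control input are not stated in what was used here. The authors called peaks library by library. For each peak the authors deposited a score, a fold enrichment (a ratio over background), a -log10 p and a -log10 q. No listed -log10 q was below 1. Depth is unknown. The score and the -log10 p were not used. Peaks of the mitochondrial genome were left out.

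Groups come from titles. Regions, cover and gaps were computed with pandas 2.3.3, numpy 2.4.6 and scipy 1.17.1 under Python 3.11.15, and figures were drawn with matplotlib 3.10.9, and the code was tested on simulated peak lists. A region's fold is that of its overlapping peak with the highest fold. Named regions are the 5 longest, the 5 with the highest lowest fold in the 3 libraries, and the 5 runs with the most extra regions. The extra regions, comparison classes and alternatives were chosen with earlier results of these data known. No annotation was used, so gene lists and base composition were not analysed here.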

Additional observations from a re-analysis of the deposited data

Results flagged for a closer look

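Within their groups, the 3 libraries that define the extra regions lay far from the rest, as the rule makes them do. Mean cover of an extra region was 93.8% in familiar 30 replicate 4 (5 libraries), 98.6% in control 30 replicate 3 (5 libraries) and 98.4% in familiar 120 replicate 3 (6 libraries). The number of extra regions touched and the number present, 1401 each, stood apart in the same 3 libraries. These 9 flags among 21 sets of values carry no information beyond the choice of regions. With the 3 libraries left aside, no library of any group stood apart by the same criterion (Dixon's gap over range). The rule also limited presence in these other libraries, so this is a description only.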

How the results depend on the processing

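Of 151 values of 10 summary results under alternatives, 82 stayed within a tolerance set around the value reported. This tally does not count the values with a single library left out and the other settings kept. It does count the alternatives added after the data were seen. For the number and total length this tolerance was a fixed ratio. For the share touched by the other libraries it was a standard deviation over libraries. For the remaining results it was a 95% interval over regions, which are not samples. The number of extra regions, 1401, was 931 with bases under at least 2 libraries, 17 with at least 5 (0.017 Mb), where each base needs more libraries than an extra region may be present in and other results were not computed, 862 with presence by any overlap and 280 with peaks of -log10 q of at least 5. Of the bases of the 1401 regions, 75.4% stayed in such regions with at least 2 libraries and 0.468% with at least 5. By any overlap 31.2% stayed, and at -log10 q of at least 5 it was 7.11%. Values given for an alternative describe the regions that met the changed rule. Leaving out each library in turn gave 603 to 1483 regions, 0.484 to 2.33 Mb, median lengths of 531.5 to 948 bp, 35.5 to 55.8% with another within 20 kb, and gaps to regions in all 22 of 43713 to 54206 bp. It gave 11.6 to 15.7% touched by the other libraries, 0.152 to 0.490% touched by familiar 30 replicate 2, and median fold ranks of 76.3 to 83.3% in familiar 120 replicate 3, 61.1 to 69.9% in control 30 replicate 3 and 31.99 to 35.8% in familiar 30 replicate 4. With at least 2 libraries per base the length was 3.49 Mb, the median 2187 bp, the share within 20 kb 38.7%, the gap 44658 bp, the shares touched 35.6% and 2.58%, and the rank in familiar 30 replicate 4 43.5%. By any overlap these were 0.711 Mb, 621 bp, 42.5%, 1.16% and 0% touched, and ranks of 80.9%, 65.9% and 25.3% in familiar 120 replicate 3, control 30 replicate 3 and familiar 30 replicate 4. At -log10 q of at least 5 they were 1.04 Mb, 2212.5 bp, 19.3%, a gap of 33866.5 bp, 0% touched by familiar 30 replicate 2, and ranks of 91.5%, 85.0% and 75.5% in those 3 libraries. With presence at 80% they were 4.50 Mb, 1330 bp, 61.9%, 48196 bp, 35.4% and 3.31% touched, and ranks of 85.6%, 74.5% and 42.7%. With no other library allowed they were 1.45 Mb, 852 bp, 47.4% and a rank of 30.3% in familiar 30 replicate 4, and with 2 allowed 1014 bp and 57.8%. Joining gaps of 1000 bp gave 1037 bp, 50.1% and a rank of 34.8% in familiar 30 replicate 4. A shortest length of 500 bp gave 1244.5 bp, 51.3% and ranks of 85.0%, 73.2% and 36.5% in the 3 libraries. At -log10 q of at least 2 the values were 1333 bp, 46.6%, 45944 bp and ranks of 85.9%, 74.997% and 48.6%. Runs over 5 kb held 32.5% and over 50 kb 66.5%. Added after the data were seen, the pair without familiar 30 replicate 4 gave 3032 regions, 6.74 Mb, 1214.5 bp, 64.5%, 1.19% touched by familiar 30 replicate 2 and ranks of 69.8% in familiar 120 replicate 3 and 50.5% in control 30 replicate 3. The pair without familiar 120 replicate 3 gave ranks of 64.7% in control 30 replicate 3 and 29.6% in familiar 30 replicate 4, and that without control 30 replicate 3 gave 81.6% in familiar 120 replicate 3. Some of these shifts are built in. At -log10 q of at least 2 or 5, weaker peaks were dropped while ranks still used the full lists. Higher ranks there are therefore in part fixed by the setting. By any overlap, the 1.16% is held down because a region touched by more than 1 of the other libraries was left out. The cause of the remaining shifts was not tested. The planned gene and base composition alternatives were not run. No paired analysis was possible because no test between groups was made and replicate numbers were given in accession order. Peak lists without read counts limit what can be said of weak acetylation below the calling threshold.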
